A study of Mus musculus with 11 samples.

Results

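The genes described here are Neurog1, Neurod1, Kit, Sox2, Pax6, Insm1, Hes6 and Lgr5, 8 of the 24421 gene entries of the count table, which were taken by their symbols because they mark globose basal cells and the neuronal precursors that come from them. Their transcripts were measured by RNA-seq in the whole main olfactory epithelium (MOE), the nasal tissue that holds the olfactory sensory neurons (OSNs). The mice differed in the olfactory Taar gene cluster, from Taar2 to Taar9, with 3 wild type libraries in which it was intact on both chromosomes, 4 heterozygous libraries in which 1 copy was deleted and 4 homozygous knockout libraries in which neither copy was left, and the comparisons are used here to ask whether the loss of these receptors went with a change in the genes of neurogenesis. The labels give the C57BL/6 strain and an age of P1-P2 for all 3 groups, whereas the reporting part of the paper gives an older age and a background mixed with 129 for this deletion line, and which applies was not settled here. The deletion was carried in the germline, so every cell of the tissue had it, and nothing in the labels says that the libraries of a group came from separate animals or litters. P-values therefore measure the spread between these libraries.

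The olfactory epithelium makes new neurons throughout life. Globose basal cells lie above the quiescent horizontal basal cells, divide, and pass through a stage with the proneural factor NEUROG1 and then one with NEUROD1, after which the cells leave the cycle and become immature and then mature OSNs. Notch signalling holds cells back from the neuronal path through HES proteins, while SOX2 and PAX6 mark early basal cells. Both of these are also made in sustentacular cells, so in whole tissue their transcripts have more than 1 source.

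All 8 genes were measured well above the filter on low counts in every library, from 108 counts (Neurog1 in wild type replicate 3) to 2849 counts (Insm1 in homozygous replicate 3), with total counts of 9239866 to 14632525 per library. The unit of level is CPM, a gene's count per 1000000 counts of the TMM-scaled total of its library. The counts of the deleted Taar genes summed to 87 to 119 in the wild type, 31 to 96 in the heterozygous and 1 to 3 in the homozygous libraries, in the order of the labels. In homozygous replicate 2, 25.8% of counts came from the ribosomal RNA precursor Rn45s, against 0.0848% to 0.786% in the others. On the first principal component of all tested genes other than the 8, with 41.6% of the variance, the libraries fell into 2 sets, each with all 3 genotypes. Set 2 had 5 libraries (wild type replicate 3, heterozygous replicates 1 and 2, homozygous replicates 3 and 4), of which a single one was wild type, and the other 6 made up set 1. The labels name no batch that matches these sets. Skeletal muscle markers also varied between libraries, with summed levels over 11 genes of 21.9 to 75.0 CPM in the wild type, 20.9 to 1795 CPM in the heterozygous and 27.5 to 849 CPM in the homozygous libraries. Of these 11, the differences from wild type were above 0 for 11 in homozygous (median 3.34 on the log2 scale, 5 at an unadjusted p under 0.05) and for 10 in heterozygous libraries (median 4.08, 9 under 0.05), with 0 adjusted calls by edgeR.

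Of the genes, 3 encode basic helix-loop-helix proteins, NEUROG1, NEUROD1 and the HES family member HES6, and proteins of this class bind the E-box, CANNTG. Bases before their transcription starts are printed to show what the promoters of the 3 look like at these letters, with each E-box in capitals. They were taken from RefSeq (GRCm38.p6), are written 5′ to 3′ in the direction of the gene, all 3 on the minus strand, and stop short of any exon of the gene in GENCODE M21. Neurog1 is shown from chr13:56252181-56252430, Neurod1 from chr2:79456752-79456886 and Hes6 from chr1:91413223-91413472. For Neurod1 only 135 bases are printed, since its RefSeq start lies 115 bases inside the gene in GENCODE M21. Distances below are counted from the RefSeq start, not from the end of the printed bases.
Neurog1: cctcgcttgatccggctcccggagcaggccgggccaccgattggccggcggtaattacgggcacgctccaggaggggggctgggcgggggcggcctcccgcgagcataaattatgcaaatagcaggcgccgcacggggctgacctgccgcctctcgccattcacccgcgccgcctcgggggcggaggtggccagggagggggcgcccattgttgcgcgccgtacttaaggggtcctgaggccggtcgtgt
Neurod1: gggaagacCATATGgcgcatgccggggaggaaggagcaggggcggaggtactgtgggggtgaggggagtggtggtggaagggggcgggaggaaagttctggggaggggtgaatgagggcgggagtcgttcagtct
Hes6: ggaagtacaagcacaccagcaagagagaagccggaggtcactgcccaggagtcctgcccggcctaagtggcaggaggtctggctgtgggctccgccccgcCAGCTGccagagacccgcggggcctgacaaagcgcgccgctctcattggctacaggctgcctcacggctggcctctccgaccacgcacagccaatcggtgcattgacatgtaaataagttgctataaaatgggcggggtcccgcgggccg
RefSeq windows of 250 bases before the start were matched for 6 of the 8 genes. Hes6, Kit and Pax6 have 2 starts each in that table, of which the one nearest a principal GENCODE transcript was used. For Hes6 this start lies inside the gene, downstream of the first exon of a longer transcript. Insm1 and Lgr5 had no entry. An E-box stood in 2 of the 6 windows, 1 copy each, as CATATG at 242 bases before the Neurod1 start and as CAGCTG at 150 bases before the Hes6 start, while 66.2% of all 32817 windows of this length hold at least 1. The windows of Neurog1, Kit, Sox2 and Pax6 held none. CACNAG, the N-box that HES proteins can bind, occurred 3 times in the Kit window and once in that of Hes6, without overlap with an E-box, and in 36.7% of all windows. In Kit it stood at 126, 73 and 30 bases before the RefSeq start. This window runs into the first exon of Kit in GENCODE M21, and the matches at 73 and 30 bases reach or lie in that exon. TATAAA was found only before Hes6, at 28 bases, against 12.4% of all windows. GTGGGAA, the core site of the Notch partner RBPJ, was in none of the 6 and in 5.42% of all windows. Both strands were searched, and a match is a run of letters, not a measured binding site.

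Compared per kilobase of annotated exon (GENCODE M21, all isoforms of a gene joined), the 8 genes spanned a wide range. Hes6 was highest at 87.7 ± 11.9 CPM per kb (SD, n = 11 libraries), followed by Insm1 at 61.3 ± 10.3 and Sox2 at 58.4 ± 8.40. Neurod1 was at 22.5 ± 2.84 CPM per kb, Neurog1 at 11.3 ± 2.72, Kit at 8.40 ± 0.881 and Pax6 at 7.35 ± 1.14. Lgr5 came last at 1.68 ± 0.354 CPM per kb, below Pax6 in 11 of 11 libraries. Hes6 exceeded Insm1 in 11 of 11 libraries although their ranges overlapped, whereas Insm1 exceeded Sox2 in only 6 of 11, so the order of these neighbours is not set by the data. Sox2 lay above Neurod1, and Neurod1 above Neurog1, in every library and without overlap of ranges. Kit was above Pax6, and Neurog1 above Kit, in 10 of 11 libraries. Joined isoforms make the exon length of Kit (8911 bases), Lgr5 (10264) and Pax6 (11694) long, which lowers their level on this scale.

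**Figure D1:**
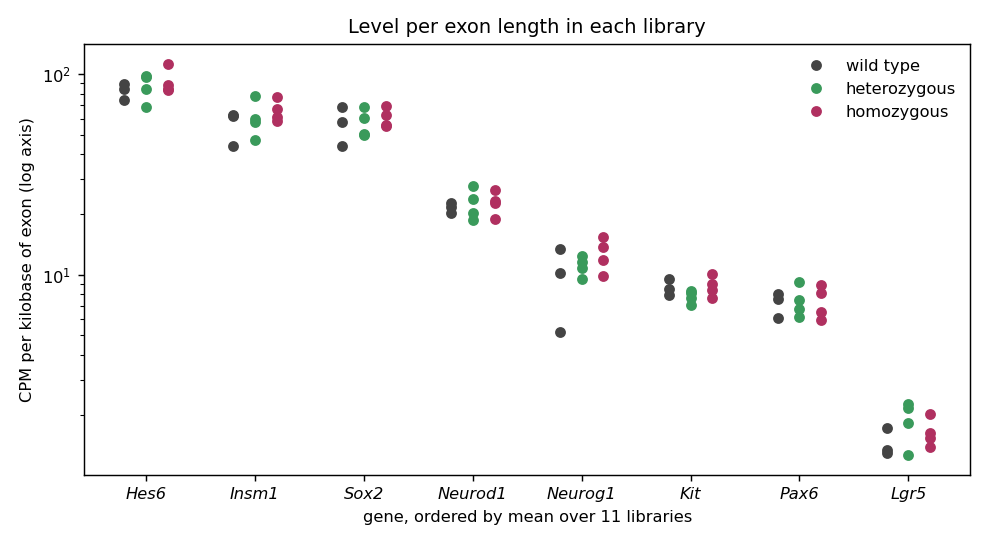
Level of each gene in CPM per kilobase of exon (log axis), 1 point per library, coloured by genotype, with genes ordered by their mean over 11 libraries. Points of Hes6, at 68.4 to 113.0 CPM per kb, lie on top and those of Lgr5, at 1.26 to 2.26, at the bottom, and the 3 genotypes overlap in every gene.

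No change of any of the 8 genes with the deletion of the Taar cluster was detected. By edgeR's quasi-likelihood test with Benjamini-Hochberg adjustment over 16574 tested genes, 0 of 8 passed an adjusted p of 0.05 when the homozygous or the heterozygous libraries were set against wild type, or the homozygous against the heterozygous. At an unadjusted p under 0.05 the count was also 0 of 8 in each of the 3 comparisons, and DESeq2 called 0 of 8. Over all genes, edgeR called 0% at the adjusted threshold in each comparison, where DESeq2 called 8, 3 and 2 genes, and 3.02%, 2.24% and 0.561% were at an unadjusted p under 0.05. No gene of the 8 had groups that did not overlap in CPM, against 4.99% of all tested genes for homozygous and wild type, 2.51% for heterozygous and wild type and 0.597% for homozygous and heterozygous libraries. With the replicate number as a block and the heterozygous libraries left out, 39 of 16163 genes passed the adjusted threshold in homozygous against wild type libraries, and 0 of the 8 were among them. The fit over 11 libraries did not call the deleted genes either. Its lowest adjusted p in homozygous against wild type libraries was 0.173, for Taar6 (edgeR). In whole tissue, fewer precursor cells and less RNA per precursor cell cannot be told apart.

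**Figure D2:**
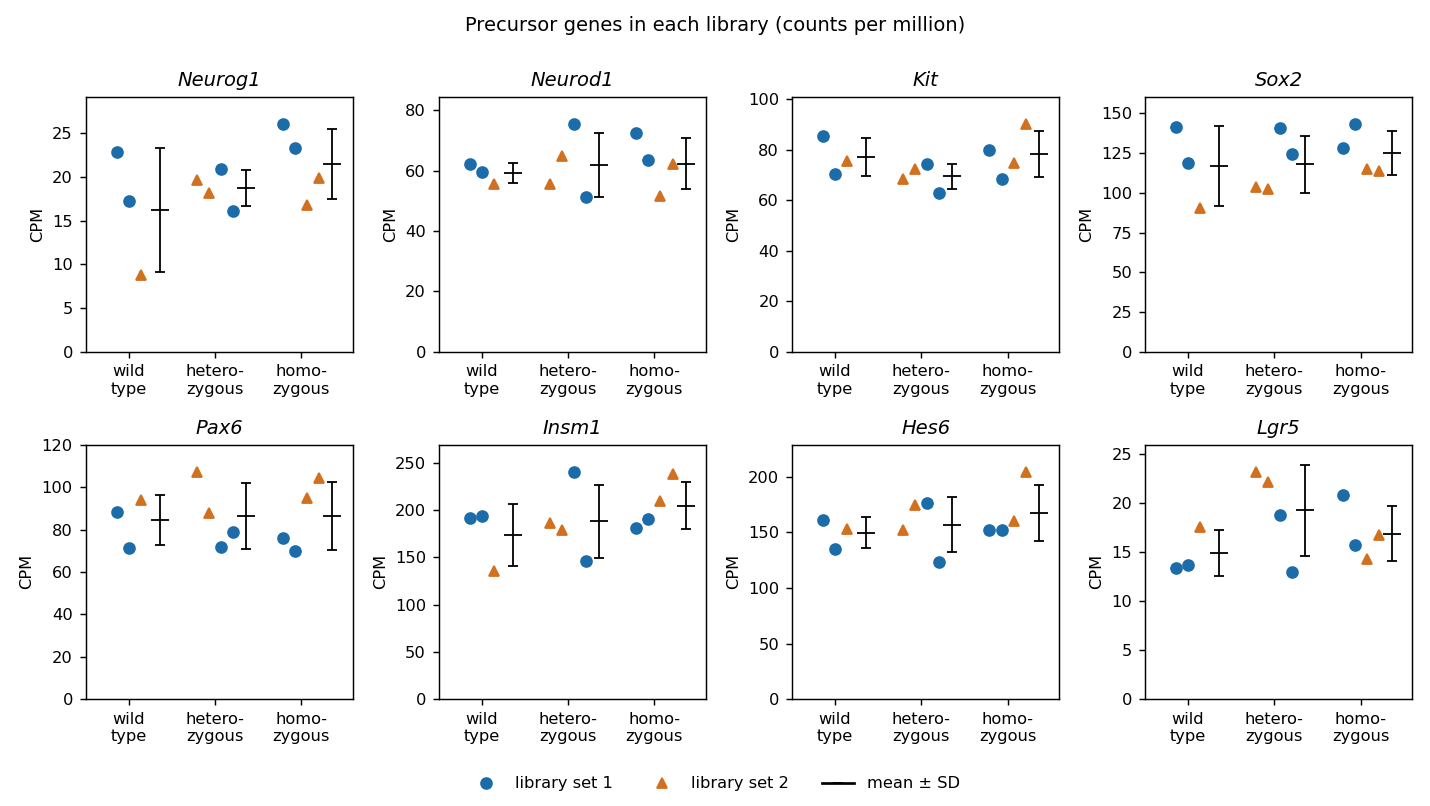
CPM of each gene in every library (axes from 0), by genotype, with blue circles for library set 1 and orange triangles for set 2, and the mean ± SD of each group in black. The groups overlap in all 8 genes, and in Sox2 the circles lie above the triangles, at 118.7 CPM or more against 114.8 or less.

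Sox2 encodes an HMG-box transcription factor of stem and progenitor cells. It is a single exon of 2057 bases at chr3:34650405-34652461 (plus strand, GRCm38), within the longer transcript Sox2ot on the same strand, with which it shares 0 exon bases in this annotation. Wild type libraries 1 to 3 gave 141.3, 118.7 and 90.6 CPM for Sox2. Heterozygous libraries 1 to 4 gave 103.9, 102.6, 140.5 and 124.5 CPM, and homozygous libraries 128.1, 143.1, 114.8 and 113.9 CPM. The lowest library was wild type and the highest homozygous, with the 3 groups otherwise on top of each other. Homozygous and wild type means of 125.0 ± 13.7 and 116.9 ± 25.4 CPM (SD) were 0.10 apart on the log2 scale (SE 0.17, 95% interval -0.28 to 0.48, adjusted p = 0.996 by edgeR), less than the spread between replicates.

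Pax6, a paired-box and homeodomain factor, covers chr2:105668900-105697364 on the plus strand with 16 joined exons, and the antisense Pax6os1 overlaps it without sharing exon bases. Its CPM was 88.5, 71.5 and 94.0 in the wild type, 107.3, 88.0, 71.7 and 78.9 in the heterozygous and 76.2, 69.8, 94.997 and 104.3 in the homozygous libraries. High and low libraries occurred in each genotype. Group means were 84.7 ± 11.7, 86.5 ± 15.4 and 86.3 ± 16.1 CPM, and the fitted log2 difference of homozygous from wild type was 0.03 (SE 0.18, interval -0.37 to 0.43).

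Kit encodes the receptor tyrosine kinase for stem cell factor, which marks dividing precursors of the neuronal line. The gene lies at chr5:75574916-75656722 on the plus strand. Kit was at 85.3, 70.6 and 75.6 CPM in the wild type libraries, 68.6, 72.3, 74.3 and 63.0 in the heterozygous and 80.0, 68.3, 74.8 and 90.1 in the homozygous ones. It was the steadiest of the 8, with a coefficient of variation of 10.5% over all 11 libraries, where the median gene within 1.5-fold of its level had 15.7%. The homozygous level lay above every heterozygous library in 3 of 4 libraries, and the log2 difference of homozygous from heterozygous was 0.17 (SE 0.12, interval -0.09 to 0.43, unadjusted p = 0.183), which was 0.096 without homozygous replicate 4. Against wild type it was 0.02 in homozygous (interval -0.26 to 0.31) and -0.15 in heterozygous libraries (interval -0.43 to 0.13), where the latter was -0.071 without wild type replicate 1. As a ratio, the homozygous level was between 0.833 and 1.24 times the wild type level.

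Other cells can carry KIT, and their markers were read beside it. Of 8 mast cell markers, Tpsab1, Fcer1a and Ms4a2 did not pass the filter, with means of 0.204 CPM or less, Cpa3, Mcpt4, Cma1 and Tpsb2 reached at most 11.9 CPM, and Hdc at 113 to 221 CPM made up most of the sum of 120 to 252 CPM. Of 6 melanocyte markers, Mlana, Tyr, Tyrp1 and Dct had means of 0.326 CPM or less, and the sum was 10.2 to 16.4 CPM. The mast cell sum ran from 132 to 174 CPM in the wild type, 120 to 252 in the heterozygous and 151 to 202 in the homozygous libraries.

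Lgr5, a receptor for R-spondins that enhances Wnt signalling, marks cycling globose basal cells in this tissue. It lies at chr10:115450311-115587780 on the minus strand, and A930009A15Rik on the other strand overlaps it without shared exon bases. Wild type CPM was 13.3, 13.7 and 17.6, heterozygous CPM 23.2, 22.2, 18.8 and 13.0, and homozygous CPM 20.8, 15.7, 14.3 and 16.7. Of the 4 heterozygous libraries, 3 were above all wild type libraries and the last was below all of them. The heterozygous mean of 19.3 ± 4.62 CPM exceeded the wild type mean of 14.9 ± 2.36 CPM by 0.38 on the log2 scale (SE 0.22, interval -0.11 to 0.86, unadjusted p = 0.119). The homozygous mean of 16.9 ± 2.78 CPM lay between them, 0.18 above wild type (SE 0.22, interval -0.31 to 0.67), and this difference ran from 0.06 without homozygous replicate 1 to 0.32 without wild type replicate 3, and was 0.34 with the skeletal muscle level as a covariate. Without heterozygous replicate 4, which had the highest skeletal muscle level of the 11 libraries (1795 CPM), the heterozygous difference was 0.52 with an unadjusted p of 0.0236 and an adjusted p of 0.998 (edgeR). With the muscle level as a covariate the heterozygous difference was 0.50 (edgeR unadjusted p = 0.0479, adjusted p = 0.990). In that fit 574 of 16574 genes were at an unadjusted p under 0.05. This covariate, here and below, was chosen after the data were seen. It is not independent of genotype, since wild type libraries reached at most 75.0 CPM in summed muscle markers.

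Neurog1 encodes the factor that commits basal cells to the neuronal path. It is a single exon of 1686 bases at chr13:56250478-56252163 on the minus strand, and its promoter is the first printed above, without an E-box. Wild type libraries had 22.8, 17.2 and 8.72 CPM, heterozygous libraries 19.6, 18.2, 20.9 and 16.1 CPM, and homozygous libraries 26.0, 23.3, 16.7 and 19.9 CPM. Wild type replicate 3, with 108 counts, was lowest of the 11 by a wide margin, and 2 of 4 homozygous libraries were above all wild type ones. Among the 8 genes Neurog1 varied most, with a coefficient of variation of 24.1% (median gene of like level 19.7%) and a 2.98-fold range. Its homozygous mean of 21.5 ± 4.04 CPM against a wild type mean of 16.3 ± 7.09 CPM was the largest difference from wild type of the 8 in homozygous libraries, 0.40 on the log2 scale (SE 0.28, interval -0.20 to 1.01, unadjusted p = 0.173, edgeR adjusted p = 0.996).

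The size of the Neurog1 difference varied with the wild type libraries used. Without wild type replicate 3 it was 0.10 (edgeR unadjusted p = 0.644), and without wild type replicate 1 it was 0.73 (unadjusted p = 0.0272, adjusted p = 0.9999). With the library set as a covariate it was 0.51 (edgeR unadjusted p = 0.0438, adjusted p = 0.705). Of all genes, 352 of 16818 were at an unadjusted p under 0.05 without wild type replicate 1, and 1132 of 16574 with the set covariate. Between libraries of the same replicate number, Neurog1 was higher in the homozygous one in 3 of 3 pairs. The share of all genes with 3 pairs in 1 direction was not computed. With the replicate number as a block in those 2 genotypes the difference was 0.49 (SE 0.18, edgeR unadjusted p = 0.0252, adjusted p = 0.711). This p was the lowest of the 16 alternatives, and 1020 of 16163 genes were at an unadjusted p under 0.05 in this fit. The block was chosen after the data were seen. The pairing was inferred from these same libraries, and its numbers follow the library sets. Within set 1, homozygous libraries averaged 24.7 CPM and wild type libraries 20.0 CPM (2 against 2), and within set 2 they averaged 18.3 CPM against 8.72 CPM in the single wild type library. In heterozygous libraries the difference from wild type was 0.21 (SE 0.28, interval -0.40 to 0.81).

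Neurod1 encodes the next proneural factor, made as cells stop dividing. Its 2 exons span chr2:79452521-79456751 on the minus strand and share 201 bases (7.37%) with Cerkl on the same strand and 154 bases (5.64%) with Gm26755 on the other strand, so reads there may have been left out or assigned elsewhere. The libraries held 62.4, 59.7 and 55.5 CPM (wild type), 55.7, 65.0, 75.3 and 51.3 CPM (heterozygous), and 72.3, 63.5, 51.6 and 62.1 CPM (homozygous). Wild type libraries fell inside the range of both other groups. The group means were within 0.08 of each other on the log2 scale, at 59.2 ± 3.43, 61.8 ± 10.7 and 62.4 ± 8.51 CPM, and the interval of homozygous against wild type was -0.27 to 0.42.

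Insm1 encodes a zinc-finger factor of precursors that divide to give neurons. It is a single exon of 3100 bases at chr2:146221921-146225020 on the plus strand. Its CPM was 191, 194 and 136 in the wild type, 186, 179, 240 and 146 in the heterozygous and 181, 191, 209 and 238 in the homozygous libraries. Wild type replicate 3 was again lowest of all, as for Neurog1 and Sox2, and 2 of 4 homozygous libraries lay above all wild type ones. The homozygous difference from wild type was 0.24 (SE 0.19, interval -0.18 to 0.65, unadjusted p = 0.234), and it was 0.09 without wild type replicate 3, 0.15 with the replicate block on the 2 genotypes, 0.16 without homozygous replicate 4 and 0.37 with the skeletal muscle level as a covariate (edgeR unadjusted p = 0.0802, adjusted p = 0.761).

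Hes6 encodes a HES protein that opposes HES1 and favours neuronal differentiation. The gene is at chr1:91411483-91414038 on the minus strand. In the wild type it was at 162, 135 and 153 CPM, in the heterozygous libraries at 152, 175, 176 and 124 CPM and in the homozygous at 152, 152, 160 and 204 CPM. Homozygous replicate 4 stood above the other 10 libraries. Group means were 150 ± 13.8, 157 ± 24.6 and 167 ± 25.2 CPM, and the homozygous difference from wild type was 0.16 (SE 0.16, interval -0.20 to 0.51). With the skeletal muscle level as a covariate it was 0.29 (edgeR unadjusted p = 0.105, adjusted p = 0.761), with the replicate block on the 2 genotypes 0.03 and without wild type replicate 2 0.09. Without homozygous replicate 4 that difference was 0.05, and that from heterozygous libraries turned from 0.09 to -0.02.

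Side by side, all 8 fitted differences of homozygous from wild type were above 0, with a median of 0.13 where 8746 of 16574 tested genes were above 0 with a median of 0.02. With the skeletal muscle level as a covariate the median was 0.23, without homozygous replicate 1 it was 0.084, and with the replicate number as a block in those 2 genotypes it was 0.090. With the muscle covariate the differences of Kit, Pax6 and Neurod1, which were 0.02, 0.03 and 0.08, became 0.11, 0.12 and 0.17, while that of Sox2 was 0.09 against 0.10 without it. For heterozygous against wild type, which uses the same wild type libraries, 7 of 8 were above 0 with a median of 0.06 (all genes 0.00), and Kit was the exception. That median was -0.01 without wild type replicate 3 or without heterozygous replicate 3, and 0.16 with the skeletal muscle level as a covariate. Against heterozygous libraries, 6 of 8 homozygous levels were higher, with a median of 0.09 (all genes 0.01), which was -0.02 without heterozygous replicate 4. Each single interval held 0, and the sign of Kit and Pax6 in homozygous against wild type libraries changed under 5 and 6 of the 16 alternatives tried. Markers of neighbouring tissue were also above 0 against wild type. Olfactory bulb markers had medians of 0.33 in homozygous and 0.21 in heterozygous libraries (9 of 11 above 0 in each). Cartilage and bone markers had 0.17 and 0.22 (7 of 8 in each). Their part in the levels of the 8 genes was not tested, and lists that went below 0 are given further on.

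**Figure D3:**
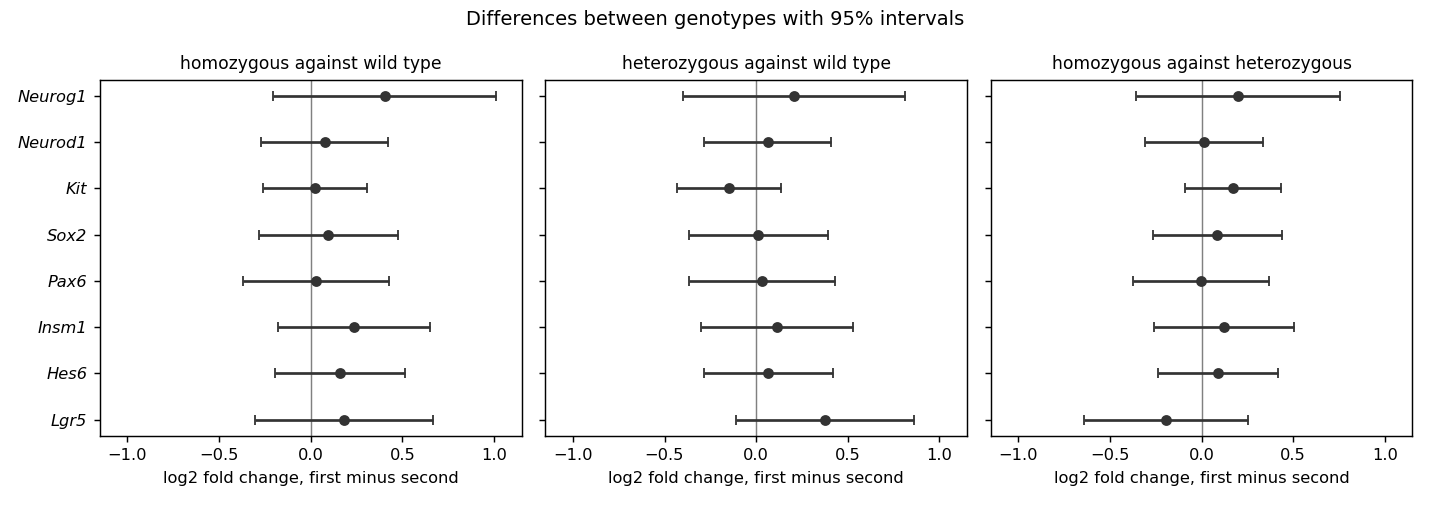
Log2 fold change of each gene (points) with its 95% interval (bars) in the 3 comparisons, from the fit over all 11 libraries. Every interval crosses 0, and the widest is that of Neurog1, from -0.20 to 1.01 in homozygous against wild type libraries.

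The 8 genes differed in how they followed the 2 library sets, which were formed without them. Sox2 averaged 132.7 ± 10.3 CPM (SD, n = 6) in set 1 and 105.1 ± 9.87 CPM (n = 5) in set 2, and was the only one whose values did not overlap between the sets, as did not those of 26.9% of all tested genes. Pax6 went the other way, at 76.1 ± 6.94 and 97.7 ± 7.93 CPM. Wild type replicate 1, at 88.5 CPM, was the set 1 library that reached into the range of set 2. Neurog1 was higher in set 1 (21.1 against 16.6 CPM) and Lgr5 and Hes6 in set 2 (18.8 against 15.9 CPM and 169 against 150 CPM), all with overlap. Insm1 was alike in both (191 and 190 CPM). Since the sets come from the data, these are descriptions without a test.

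Markers of other cell types were compared between the sets too. The summed level of 8 respiratory ciliated cell markers was 727 to 1096 CPM in set 1 and 513 to 668 CPM in set 2, without overlap, and each of the 8 had the higher mean in set 1. The 8 horizontal basal cell markers summed to 259 to 538 CPM in set 1 and 229 to 293 CPM in set 2, and 7 Bowman gland markers to 8758 to 30101 CPM and 3979 to 11397 CPM. Sustentacular markers were at 2701 to 4853 and 3420 to 4788 CPM. These last 3 sums overlapped between the sets. Their part in the levels of Sox2 and Pax6 was not tested. Within set 1, Sox2 means were 130, 133 and 136 CPM in wild type, heterozygous and homozygous libraries (2 each), and within set 2 they were 90.6 (1 library), 103 and 114 CPM (2 each).

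Neighbouring steps of the lineage were read from lists. Of 23 Notch pathway genes 0 passed the adjusted threshold in any comparison (edgeR), and 0 were at an unadjusted p under 0.05 in homozygous against wild type libraries, where 19 of 23 differences were above 0 with a median of 0.11. The receptor Notch2, at 146 ± 8.12 CPM in the wild type and 152 ± 4.72 CPM in the homozygous libraries, differed by 0.05 (SE 0.12). Hey1, a target of Notch, was at 112 ± 16.7 and 131 ± 7.77 CPM, a difference of 0.22 (SE 0.14, unadjusted p = 0.148). The ligand Jag2 ranged from 92.3 to 286 CPM over the libraries, and its homozygous difference of 0.27 had an SE of 0.44. Hes1, the best known target in these cells, averaged 43.1 CPM and Hes5 only 2.28 CPM, both named after their values were seen.

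Among 25 other transcription factors of the neuronal line, 24 were tested and 0 passed after adjustment in each comparison. Neurog2, a paralogue of Neurog1 used elsewhere in the nervous system, was the one not tested, at a mean of 0.0382 CPM. The most abundant were Atf5, which OSNs need to mature, at 680 ± 88.4 CPM in the wild type and 740 ± 94.4 CPM in the homozygous libraries, the LIM cofactor gene Ldb1, at 432 ± 198 and 584 ± 311 CPM, and Ebf3, at 434 ± 59.5 and 411 ± 26.1 CPM. Sox4, which precursors and young neurons express, was named after its values were seen. It was the single factor at an unadjusted p under 0.05 in homozygous libraries, 0.50 higher than wild type on the log2 scale (SE 0.16, unadjusted p = 0.00992, edgeR adjusted p = 0.996). This was 1 of 24 tested factors, where 3.02% of all genes were at that level.

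The list around LGR5 and KIT held R-spondins, the ligase genes Rnf43 and Znrf3, Wnt feedback genes and Kitl. Of its 20 genes 19 were tested and 0 passed after adjustment or at an unadjusted p under 0.05 in any comparison, with medians of 0.07, 0.00 and 0.12. Ctnnb1, which encodes beta-catenin, was at 921 ± 89.8 CPM in the wild type, 917 ± 140 CPM in the heterozygous and 878 ± 97.1 CPM in the homozygous libraries. The co-receptor gene Lrp6 was at 159 ± 10.3, 166 ± 17.0 and 178 ± 35.8 CPM, and Lrp5 at 140 ± 38.1, 144 ± 24.9 and 157 ± 29.2 CPM.

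Proliferation genes and neuron markers were read in the same way. Of 20 proliferation genes, 15 differences were below 0 in homozygous against wild type libraries (median -0.18) and 20 in heterozygous against wild type libraries (median -0.25), with 0 past the adjusted threshold (edgeR) and 0 and 2 at an unadjusted p under 0.05, where 3.02% and 2.24% of all genes were. In homozygous against heterozygous libraries the sign was the other, with 16 of 20 above 0 and a median of 0.07. Mki67, the gene of the proliferation antigen, was at 213 ± 19.0 CPM in the wild type, 177 ± 10.01 CPM in the heterozygous and 185 ± 11.2 CPM in the homozygous libraries. Top2a was at 150 ± 33.1, 118 ± 26.3 and 119 ± 26.7 CPM, and Ccnd1 at 297 ± 92.4, 238 ± 66.8 and 248 ± 40.4 CPM. In the same libraries, the median of 10 immature OSN markers was -0.03 in homozygous and 0.02 in heterozygous against wild type. The 12 mature OSN markers all had differences below 0 in both, with medians of -0.32 and -0.19 and again 0 adjusted calls. At an unadjusted p under 0.05 there were 1 and 0 of 12, the 1 being Slc17a6 in homozygous libraries (edgeR unadjusted p = 0.0206, adjusted p = 0.996), named after its values were seen. In homozygous against heterozygous libraries 1 of 12 was above 0. Lists for other cells of the nasal lining differed among themselves. The 8 sustentacular markers had medians of -0.21 in homozygous and -0.22 in heterozygous against wild type (1 and 2 of 8 above 0), and the 8 horizontal basal cell markers had -0.17 in both (2 and 1 of 8 above 0). The 8 respiratory ciliated cell markers had medians of 0.09 and -0.03 (6 and 3 of 8 above 0), and the 7 Bowman gland markers -0.03 and -0.26 (2 of 7 above 0 in each). Skeletal muscle markers were higher in the same libraries, with medians of 3.34 and 4.08, and their part in these lists was not tested. Of all 16574 tested genes, 8746 and 8357 were above 0 in homozygous and heterozygous against wild type libraries. Omp, the gene of the olfactory marker protein, was at 562 ± 197, 502 ± 61.3 and 454 ± 77.7 CPM. These comparisons share the 3 wild type libraries, and the summed mature OSN markers overlapped between genotypes, at 1579 to 2720 CPM in the wild type, 1666 to 2263 CPM in the heterozygous and 1502 to 1921 CPM in the homozygous libraries.

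**Figure D4:**
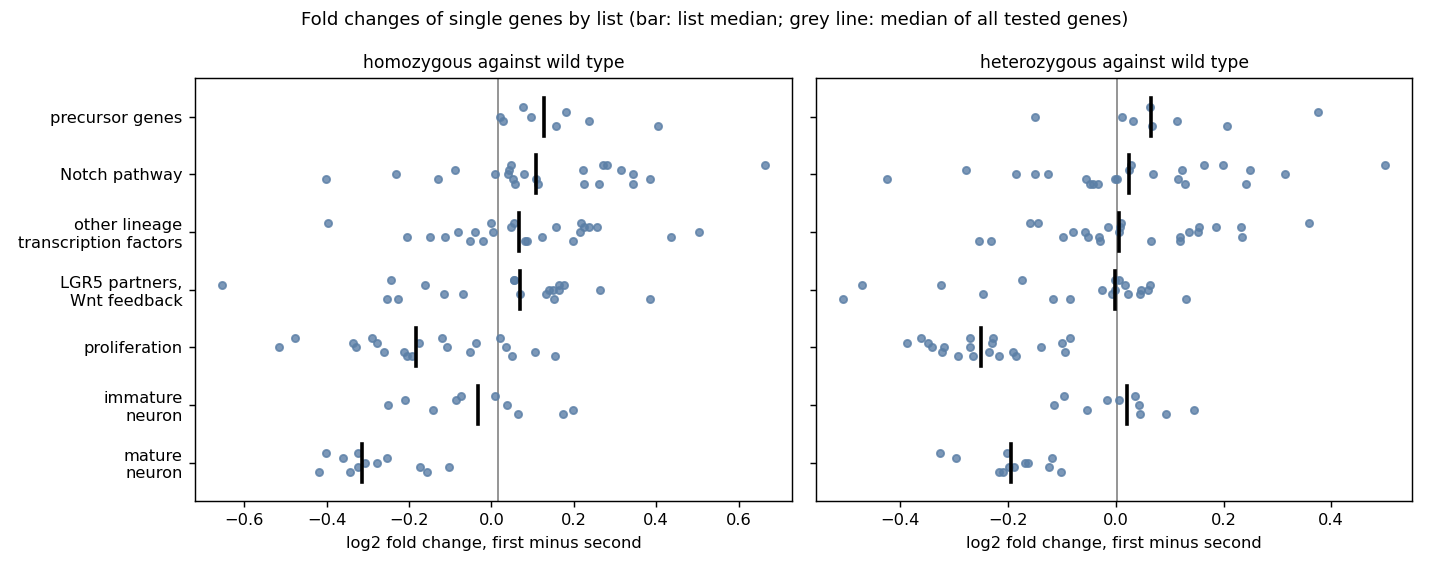
Log2 fold changes of single genes (points, spread vertically for sight) in 7 lists, for homozygous and heterozygous against wild type libraries, with list medians as black bars and the median of all tested genes as a grey line. The precursor genes lie to the right of the line in homozygous libraries (median 0.13) and the mature neuron markers to the left (median -0.32), with no gene past the adjusted threshold.

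To see which of the 8 genes rose and fell together across libraries, correlations of log2 CPM over the 11 libraries were taken after centring within library set. Of 28 pairs, 24 had a positive r, 7 had an unadjusted p under 0.05 by two-sided exact permutation within sets, and 0 passed after adjustment over the 28 pairs. An r of 0.66 or more, the smallest among those 7, was found in 8 of the 28 pairs. As background, over all pairs of the 15729 genes with a mean of at least 1 CPM, 50% had a positive r and 5.4% had an r of 0.66 or more, against 85.7% and 28.6% of the pairs among the 8, whose pairs share genes and are not independent. These shares hold for centring within set. Centred within genotype, fewer of the 28 pairs had a positive r or an r of 0.66 or more. Neurod1 and Hes6 were the strongest pair, with r = 0.79 (exact permutation p = 0.00777, adjusted 0.104) and Spearman's rho = 0.77 (exact permutation p = 0.0127). Without the 2 libraries farthest from the median r was 0.58 (exact permutation p = 0.1399). Insm1 also followed Hes6 with r = 0.76 (rho = 0.55) and Sox2 with r = 0.76 (rho = 0.70). Kit and Hes6 had r = 0.74, which fell to 0.31 without 2 libraries and so rested on them. Neurod1 and Lgr5 (r = 0.72), Neurog1 and Sox2 (r = 0.72) and Sox2 and Hes6 (r = 0.66) completed the 7, and their adjusted exact permutation p ran from 0.104 to 0.170. Centred within genotype instead, r was higher for Kit with Hes6 (0.85) and Neurog1 with Sox2 (0.76). It was lower for the rest of the 7, at 0.44 for Neurod1 with Hes6 and -0.15 for Sox2 with Hes6.

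Pax6 stood apart from this group, with r between -0.25 and 0.40 to the other 7 genes. Its r with Sox2 was 0.21 within sets and -0.67 when the libraries were centred within genotype instead, which leaves the opposite set differences of the 2 genes in. Centred and permuted within genotype, 2 of 28 pairs passed after adjustment. They were Kit with Hes6 (r = 0.85, adjusted exact permutation p = 0.0324) and Neurog1 with Neurod1 (r = 0.57, adjusted exact permutation p = 0.0324). This centring leaves the set differences of these genes in too. Within sets, Neurog1 with Neurod1 had r = 0.47 (exact permutation p = 0.117, adjusted 0.297). Homozygous replicate 4 was the highest library for both Kit and Hes6, and the call of that pair was not tested without it. The libraries share depth and tissue composition across all genes, so these values describe libraries, not cells.

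**Figure D5:**
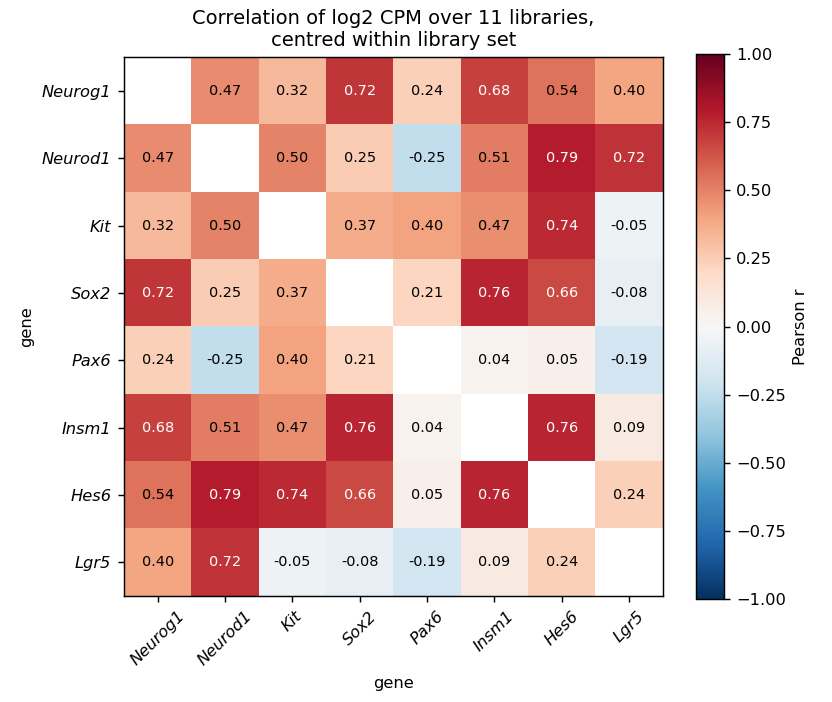
Pearson r between each pair of the 8 genes over 11 libraries, log2 CPM centred within library set, from -1 (blue) to 1 (red). The reddest cell joins Neurod1 and Hes6 (0.79), and the Pax6 row is pale, from -0.25 to 0.40.

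The genes whose pattern over the 11 libraries was most like each of the 8 were searched among 15721 candidates with a mean of at least 1 CPM, by Pearson r after centring within set. With that many candidates high values are found for any gene, so they are a description without a test. For Neurog1 they included Pef1 (r = 0.95), and for Neurod1 they were Wasf1, an actin regulator of neurons (r = 0.91), and Gm17762 (r = 0.91). Kit was closest to Tmem198 (r = 0.92) and Rangrf (r = 0.91). Sox2 was closest to Lrrc3 (r = 0.94) and Arpc4, a subunit of the actin-nucleating Arp2/3 complex (r = 0.93). For Pax6 the search gave Wfdc3 (r = 0.94) and Rabl2 (r = 0.92), and for Insm1 Pes1, a ribosome assembly factor (r = 0.97), and Sbk1 (r = 0.97). Hes6 was most like Paqr3 (r = 0.91) and the helicase family gene Mcm9 (r = 0.91). Lgr5 was most like Prkca, which encodes protein kinase C alpha (r = 0.96), and the sodium channel gene Scn7a (r = 0.94). No gene appeared under more than 1 of the 8.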

How the data were processed

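RNA of 11 whole MOE samples was sequenced after polyA selection with a directional kit. Per the submitters' processing notes, reads were trimmed with Trimmomatic (0.36) and aligned with HISAT2 (2.1.0) to mm10 (GRCm38). The authors deposited raw read counts per gene made with featureCounts of Subread (1.6.2). The annotation, strand setting and treatment of reads with several positions are not given in the sources used here. A second table that the authors deposited holds a normalised signal, the count over a size factor for each library (DESeq2, 1.20.0). All 8 genes are in both tables. All tests ran on the raw counts, with the signal table used only for an alternative restricted to its genes.

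Counts were fitted with edgeR (4.0.16, R 4.3.3) on the whole table, with TMM scaling, filterByExpr by genotype (16574 of 24421 entries kept) and a quasi-likelihood fit of 3 genotypes over 11 libraries. Adjustment was by Benjamini-Hochberg over the 16574 genes with a threshold of 0.05, and intervals are 95%. DESeq2 (1.42.0) was an alternative. Correlations used log2 CPM (prior count 2) and exact permutation within library sets, or within genotypes where they were centred within genotype. The script was tested on simulated data. Genes named are the 8, the 3 of highest mean CPM of a list, and the 2 most alike in pattern, apart from items not reported here. Hes1, Hes5, Sox4 and Slc17a6 are said to be named after their values were seen. Some others, such as Taar6, Neurog2 and single mast cell and melanocyte markers, were named outside this rule without such a remark. Exon lengths and positions came from GENCODE M21. The 8 genes and the lists were chosen with earlier results of these data known.

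Samples share replicate numbers in the labels, which do not say what a number stands for. Deviations from group means correlated between same-numbered homozygous and wild type libraries (r = 0.33, 0.42 and 0.40, each the best match of its number), so the numbers were taken to pair those groups on this hint from the data. Those of the heterozygous libraries correlated negatively with both other groups (-0.19 to -0.58) and were not paired. The numbers also follow the library sets. Replicates 1 and 2 of the wild type and homozygous groups are in set 1, and replicate 3 of both is in set 2. Heterozygous replicates 1 and 2 are in set 2, and 3 and 4 are in set 1. A pairing by number and the library sets cannot be told apart from these correlations. Depth was 9239866 to 14632525 counts per library.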

Additional observations from a re-analysis of the deposited data

Results flagged for a closer look

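Hes6 in homozygous replicate 4 was at 204 CPM, far from the other 3 homozygous libraries at 152 to 160 CPM. The gap to the nearest was 0.834 of the range of the group, just above Dixon's critical value for 4 libraries. Of 16 groups of 4 libraries tested (8 genes in 2 genotypes), this was the only 1 past the limit, and chance gives about 1 in 20. The same library had the highest Kit level (90.1 CPM) of the 11.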

How the results depend on the processing

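No difference of the 8 genes between genotypes passed an adjusted threshold of 0.05 under any alternative run. 0 of 8 were called in each comparison under RLE scaling, no filter on low counts, DESeq2, the library set as a covariate, the replicate block, the 2 compared genotypes only, and each leave-out of 1 library, and also under 2 alternatives chosen after seeing the data (genes of the normalised table only, and the skeletal muscle level as a covariate). A further one chosen then, the replicate block without heterozygous libraries, was run for homozygous against wild type only and called 0 of 8. Over the whole table DESeq2 called 8 genes between homozygous and wild type, 3 between heterozygous and wild type and 2 between homozygous and heterozygous libraries, where edgeR called 0, and the edgeR fit with the replicate block on homozygous and wild type libraries called 39. The signs of differences near 0 did change, and the cause was not tested. In homozygous against wild type libraries, Kit was -0.0015 without a filter, -0.0026 with 2 genotypes only and -0.073 with the replicate block on those 2 genotypes, and Pax6 was -0.046 with the library set as covariate, -0.0014 with the replicate block over 3 genotypes and -0.099 with it over 2. Pax6 in heterozygous against wild type libraries was -0.039 with the library set as covariate. In homozygous against heterozygous libraries, Neurod1 was -0.0056 without a filter and Pax6 0.0080 with the muscle covariate. The replicate block changed no adjusted call of the 8 genes.

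Leaving out each library in turn gave these ranges of log2 fold changes whose sign turned. In homozygous against wild type libraries they were -0.0034 to 0.157 for Neurod1, -0.053 to 0.100 for Kit, -0.057 to 0.256 for Sox2 and -0.079 to 0.111 for Pax6. In heterozygous against wild type libraries they were -0.096 to 0.528 for Neurog1, -0.045 to 0.145 for Neurod1, -0.142 to 0.171 for Sox2, -0.089 to 0.114 for Pax6, -0.035 to 0.219 for Insm1 and -0.0048 to 0.165 for Hes6. In homozygous against heterozygous libraries they were -0.093 to 0.121 for Neurod1, -0.107 to 0.118 for Pax6, -0.0043 to 0.264 for Insm1 and -0.033 to 0.153 for Hes6. For pairs of genes, 0 of 28 correlations passed within library sets, and 0 within sets without the 2 libraries farthest from the median. Centred within genotype, which leaves the set differences in, 2 passed. With 3 or 4 libraries a group, the intervals of single genes still allow a change of up to 2.01 times in Neurog1 (homozygous over wild type) and 1.24 times in Kit.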
